A study of Homo sapiens with 14 samples.

Results

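The 8 genes described here code for 6 enzymes of cholesterol synthesis (HMGCS1, IDI1, FDFT1, SQLE, LSS and DHCR7), for the sterol-sensing brake INSIG1 and for the transcription factor gene SREBF2. They were found by gene symbol, or by Entrez gene number in the table without symbols. They make up 8 of the 27819 genes shared by 4 tables of RNA-seq read counts. Their choice was made with earlier results of these data known. The cells were CWR22Rv1, a line established from a human prostate carcinoma, and each of 14 libraries was made after 72 h of treatment. Control cells received the solvent DMSO (3 libraries), and the treated cells received 30 µM Fucotrim I (3 libraries), 60 µM Fucotrim II (2 libraries), 100 µM SGN-2FF (3 libraries) or 2 µM P-SiaFNEtoc (3 libraries). Both Fucotrims derive from rhamnose-1-phosphate, and their intended target is GMDS, the enzyme that starts the making of GDP-fucose from GDP-mannose. SGN-2FF is the fluorinated fucose 2-fluorofucose, and P-SiaFNEtoc is a fluorinated sialic acid analogue that blocks sialylation. Each compound was sequenced at a single dose, so compound and dose cannot be told apart, and the doses differ wherever inhibitors are set side by side. All 4 comparisons with DMSO use the same 3 control libraries.

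Cells make cholesterol from acetyl-CoA through mevalonate, isoprenoid diphosphates, squalene and lanosterol, and they also take it up from lipoproteins. When membrane sterols are low, the escort protein SCAP carries the SREBP-2 precursor, the product of SREBF2, from the endoplasmic reticulum to the Golgi, where proteases release the part that switches on the genes of synthesis and uptake. When sterols are plentiful, INSIG proteins hold SCAP back in the endoplasmic reticulum. In prostate cancer cells cholesterol is a membrane component and also the starting material of androgens.

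Total counts on genes ran from 15398797 to 17689717 in the DMSO libraries, from 12553094 to 14947100 with Fucotrim I, from 18183854 to 19099194 with Fucotrim II, from 12950695 to 16579157 with SGN-2FF and from 15424545 to 19981453 with P-SiaFNEtoc. At this depth the 8 genes held between 86 counts (LSS in a Fucotrim I library) and 9195 counts (SREBF2 in a Fucotrim II library). Levels are given as CPM, the count of a gene relative to the library's total, scaled over all 14 libraries by the trimmed mean of M values (TMM). Fold changes, standard errors (SE) and adjusted p-values come from edgeR's quasi-likelihood test of each inhibitor with DMSO alone, with Benjamini-Hochberg adjustment over all genes tested. A gene is called higher or lower where the adjusted p is under 0.05, and all 8 genes passed the filter on low counts in all 4 comparisons.

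On the genome (hg38, GENCODE v44 annotation), HMGCS1 lies on chromosome 5, IDI1 on chromosome 10, DHCR7 on chromosome 11, LSS on chromosome 21, INSIG1 on chromosome 7, SREBF2 on chromosome 22, and FDFT1 and SQLE on chromosome 8. No exon of the 8 genes overlaps another gene on the same strand. Exons of genes on the opposite strand cover 37.7% of the exon bases of HMGCS1, 14.97% of those of IDI1, 9.08% of those of SREBF2, 7.88% of those of LSS and 4.27% of those of FDFT1. The library kit marks strand, but the strand setting of the read counting is not given in the sources used here, so reads from these antisense genes may be part of those counts.

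The labelled cell type was checked with marker genes. All 5 genes of the luminal prostate list (HOXB13, KRT8, KRT18, KLK3 and FOLH1) were counted, and their summed level was 1264 to 1351 CPM in DMSO. KRT8 reached the highest level of the 5 in any library, 827 CPM. The summed luminal level was 1949 to 2021 CPM with Fucotrim I, 1815 to 2119 CPM with Fucotrim II, 1614 to 1712 CPM with SGN-2FF and 1550.4 to 1626 CPM with P-SiaFNEtoc, above DMSO in every treated library. KRT5 and TP63 (basal cells), PTPRC (leukocytes), PECAM1 (endothelium), DCN (fibroblasts) and APOA1 (liver) stayed under 1 CPM in every library. ALB, which codes for serum albumin, was counted in all libraries. The sum of ALB and APOA1 was 156 to 178 CPM in DMSO, 49.8 to 74.1 CPM with Fucotrim I, 93.8 to 100.7 CPM with Fucotrim II, 166 to 192 CPM with SGN-2FF and 228 to 231 CPM with P-SiaFNEtoc. COL1A1 and DCN together were at 17.0 to 18.3 CPM in DMSO, 18.1 to 24.1 CPM with Fucotrim I, 23.5 to 29.8 CPM with Fucotrim II, 16.0 to 17.8 CPM with SGN-2FF and 18.2 to 19.8 CPM with P-SiaFNEtoc. The part of these markers in the results below was not tested. In libraries made from whole cultures, fewer cells of one kind and less RNA per cell cannot be told apart.

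Promoter windows of 250 bases before the start site were found in RefSeq (GRCh38.p14) for 6 of the 8 genes, 10 windows in all, because DHCR7, HMGCS1 and IDI1 have more than one start. Each window was searched on both strands for TCACNCCAC, a form of the sterol regulatory element that SREBP proteins bind, for its first 8 letters TCACNCCA, for CCAAT, the letters bound by NF-Y, and for GGGCGG, the letters bound by Sp1. SREBF2 was the only one of the 6 genes with TCACNCCAC, written there as TCACCCCAC and starting 133 bases before the start site, and also the only one with TCACNCCA. Of all 35116 promoter windows of the same length, 0.883% held TCACNCCAC, 3.20% held TCACNCCA, 32.01% held CCAAT and 42.6% held GGGCGG. The NF-Y letters were present for 6 of 6 genes (7 of 10 windows) and the Sp1 letters for 6 of 6 genes (9 of 10 windows). A match describes letters only, and a missing match says only that these letters are not in this window. The stretches below are shown because they belong to the gene with the sterol element letters (SREBF2) and to INSIG1 and HMGCS1, which of the 8 genes had the largest changes against DMSO. They are printed 5′ to 3′ on the strand of the gene and hold only bases outside the annotated gene, and capitals mark matches to these motifs on either strand. The SREBF2 stretch is chr22:41832855-41833104 on the plus strand, the INSIG1 stretch chr7:155297628-155297775 on the plus strand and the HMGCS1 stretch chr5:43313513-43313662 on the minus strand.
SREBF2: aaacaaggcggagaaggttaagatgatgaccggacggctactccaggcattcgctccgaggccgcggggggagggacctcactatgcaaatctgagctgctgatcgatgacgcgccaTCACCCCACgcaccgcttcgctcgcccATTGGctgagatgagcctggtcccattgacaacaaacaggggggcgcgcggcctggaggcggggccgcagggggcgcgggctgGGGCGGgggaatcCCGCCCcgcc
INSIG1: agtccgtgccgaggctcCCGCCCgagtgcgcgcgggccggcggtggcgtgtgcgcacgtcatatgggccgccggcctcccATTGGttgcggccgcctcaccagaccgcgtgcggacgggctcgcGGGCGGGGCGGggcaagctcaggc
HMGCS1: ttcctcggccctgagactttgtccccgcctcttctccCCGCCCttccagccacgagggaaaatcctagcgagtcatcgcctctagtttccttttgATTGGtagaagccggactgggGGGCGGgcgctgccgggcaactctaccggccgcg

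In control cells the 8 genes differed widely in level. Per kilobase of annotated exon, the DMSO level was highest for FDFT1, at 66.5 ± 0.987 CPM per kb (SD, n = 3), followed by SREBF2 at 41.5 ± 1.06, HMGCS1 at 24.3 ± 0.495, DHCR7 at 19.4 ± 0.353 and INSIG1 at 15.9 ± 0.149. SQLE at 10.04 ± 0.393 and IDI1 at 10.03 ± 0.465 CPM per kb lay within each other's SD, and LSS was lowest at 1.51 ± 0.0554 CPM per kb. The exon length counts every annotated exon, used or not in these cells, so the order between genes is approximate.

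Fucotrim I lowered 6 of the 8 genes: INSIG1, HMGCS1, SQLE, IDI1, FDFT1 and DHCR7 all fell, while LSS and SREBF2 did not pass the test. Over all 14188 genes tested in this comparison, 22.1% were called lower and 21.6% higher, and the median log2 fold change was 0.00, against a median of -0.45 over the 8 genes. Of the 6, DHCR7 fell by 20.4% and INSIG1 fell by 43.6%, with the others between. All Fucotrim I libraries were below all DMSO libraries in the same 6 genes, as in 27.4% of all genes (above in 25.2%).

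The first enzyme of the group, HMGCS1, condenses acetyl-CoA and acetoacetyl-CoA into HMG-CoA. It stood at 162, 163 and 157 CPM in the DMSO libraries and at 95.7, 103 and 78.6 CPM with Fucotrim I. The groups did not overlap, and HMGCS1 fell by 42.2% (log2 fold change -0.79, SE 0.07, adjusted p = 1.37e-07 by edgeR's quasi-likelihood test). IDI1, which interconverts isopentenyl and dimethylallyl diphosphate, was at 42.2, 45.4 and 41.7 CPM in DMSO and at 28.5, 32.8 and 26.97 CPM with Fucotrim I. All Fucotrim I libraries were below all DMSO libraries, and IDI1 fell by 31.3% (log2 fold change -0.54, SE 0.08, edgeR adjusted p = 1.18e-05).

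Squalene is made and used by the next enzymes, and here too the Fucotrim I libraries lay below DMSO. FDFT1, squalene synthase, was at 332, 342 and 339 CPM in DMSO and at 282, 258 and 249.7 CPM with Fucotrim I, and it fell by 21.9% (log2 fold change -0.36, SE 0.05, edgeR adjusted p = 1.04e-05). SQLE, squalene epoxidase and a rate-controlling step of the later pathway, was at 45.0, 41.7 and 43.0 CPM in DMSO and at 26.5, 27.2 and 23.3 CPM with Fucotrim I. It fell by 40.3% (log2 fold change -0.74, SE 0.07, edgeR adjusted p = 1.47e-07).

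LSS, which closes the ring to lanosterol, gave the widest spread, relative to its mean, of the 8 genes with Fucotrim I. Its level was 11.4, 10.9 and 10.6 CPM in DMSO and 12.6, 8.92 and 7.20 CPM with Fucotrim I, so that 1 treated library lay above and 2 lay below all controls. The log2 fold change was -0.19, with a 95% interval from -0.49 to 0.12 (edgeR adjusted p = 0.319). Without the first Fucotrim I library it was -0.42 and passed the test (edgeR adjusted p = 0.0107). DHCR7, the reductase of the last step to cholesterol in one branch of the pathway, was at 136, 132 and 133 CPM in DMSO and at 114, 97.9 and 107 CPM with Fucotrim I. The groups did not overlap, and DHCR7 fell by 20.4% (log2 fold change -0.33, SE 0.06, edgeR adjusted p = 0.000111).

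Of the 2 regulators, INSIG1 showed the largest estimated fall of the 8 genes and SREBF2 no change that passed the test. INSIG1 is itself a target of SREBP and retains SCAP in the endoplasmic reticulum. It was at 57.8, 58.7 and 57.7 CPM in DMSO and at 33.8, 34.0 and 29.98 CPM with Fucotrim I, and it fell by 43.6% (log2 fold change -0.83, SE 0.07, edgeR adjusted p = 7.27e-09). SREBF2 was at 338, 324 and 339.9 CPM in DMSO and at 391, 312 and 329.6 CPM with Fucotrim I. Of the treated libraries the first lay above all controls, the second below them and the third within their range, and the log2 fold change was 0.05, with a 95% interval from -0.09 to 0.18 (edgeR adjusted p = 0.582).

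The share of counts on the 39 mitochondrially encoded genes moved with the treatments. It was 5.99 to 7.04% in DMSO, 8.68 to 14.3% with Fucotrim I, 12.2 and 17.0% with Fucotrim II, 8.28 to 8.69% with SGN-2FF and 6.12 to 6.84% with P-SiaFNEtoc. When those genes were left out of the fit, no log2 fold change of the 8 genes moved by more than 0.0078. The same number of genes was called in each direction with every inhibitor. That refit bears only on the scaling of counts, and the part of the mitochondrial share in these results was not tested.

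**Figure D1:**
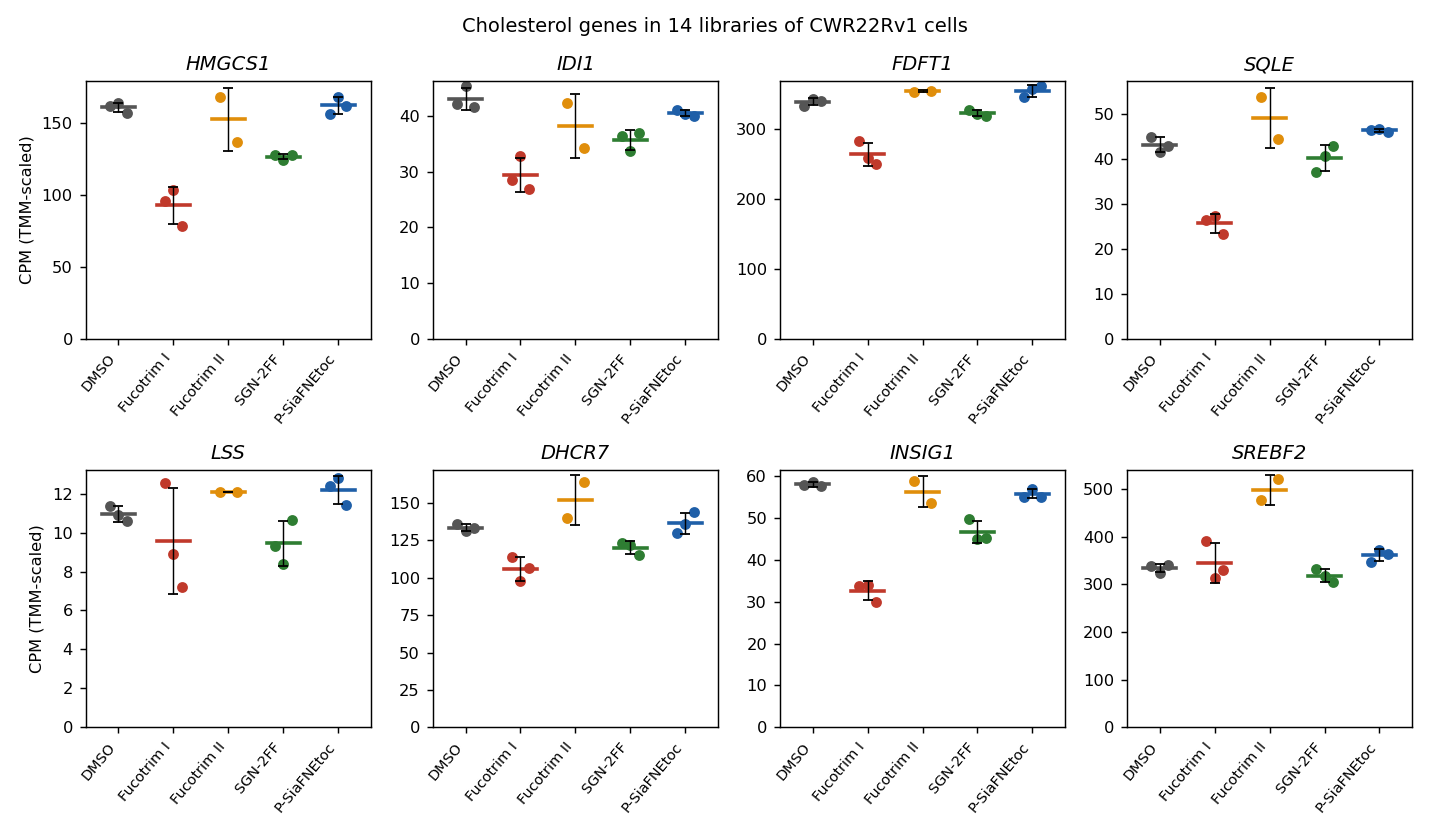
Level of each of the 8 genes (CPM, TMM-scaled, axis from 0) in the 14 libraries, with 1 point per library, a coloured line at the group mean and a black bar for 1 SD. The Fucotrim I points lie below the DMSO points for HMGCS1, IDI1, FDFT1, SQLE, DHCR7 and INSIG1, and the Fucotrim II points lie above all others for SREBF2.

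With Fucotrim II the same enzymes did not pass the test, and SREBF2 rose. SREBF2 was at 476 and 520.1 CPM with Fucotrim II, above all 12 other libraries. It rose by 48.5% over DMSO (log2 fold change 0.57, SE 0.06, edgeR adjusted p = 0.000103). Over the 14617 genes tested, 25.6% were called higher and 25.7% lower, and the median was 0.01, so that 1 call in 8 genes is not more than the share over all genes.

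The 2 Fucotrim II libraries differed from each other in several of these genes. HMGCS1 was at 168 and 137 CPM, SQLE at 53.8 and 44.4 CPM, IDI1 at 42.3 and 34.2 CPM, and DHCR7 at 140.1 and 164 CPM. The first library was thus the higher for HMGCS1, SQLE and IDI1 and the lower for DHCR7. Each of these 4 genes passed the test when 1 library was left out: without the first, HMGCS1 (log2 fold change -0.24, edgeR adjusted p = 0.00158) and IDI1 (-0.34, edgeR adjusted p = 0.00172) were lower than in DMSO and DHCR7 was higher (0.29, edgeR adjusted p = 0.0002), and without the second, SQLE was higher (0.30, edgeR adjusted p = 0.00235). In such a fit the lone library is assumed to vary like the controls.

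With both libraries the intervals were wide and their ends bound what these data can show. The log2 fold change with Fucotrim II was -0.08 for HMGCS1 (95% interval -0.28 to 0.11), -0.18 for IDI1 (-0.40 to 0.05), 0.18 for SQLE (-0.03 to 0.39) and 0.18 for DHCR7 (0.01 to 0.35, edgeR adjusted p = 0.0675). FDFT1 was at 353 and 354 CPM (log2 fold change 0.06, -0.07 to 0.19), LSS at 12.1 CPM in both libraries (0.14, -0.10 to 0.37) and INSIG1 at 58.9 and 53.7 CPM (-0.05, -0.21 to 0.11). Both Fucotrim II libraries were above all DMSO libraries for FDFT1, LSS, DHCR7 and SREBF2, as in 33.8% of all genes (below in 33.8%). In a fit of all 14 libraries together, DHCR7 was called higher with Fucotrim II (0.19, edgeR adjusted p = 0.0248). With a block by the replicate numbers in the library names, DHCR7 (0.19) and SQLE (0.21) were called higher.

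SGN-2FF lowered 4 of the 8 genes, HMGCS1, INSIG1, IDI1 and DHCR7, each by less than Fucotrim I did at its own dose. Over the 14312 genes tested, 9.08% were called lower and 11.5% higher, with a median of 0.00, against a median of -0.18 over the 8 genes. All 8 estimates were negative, as were 7046 of the 14312 over all genes, and 4 of the 8 did not pass the test. HMGCS1 was at 128, 124 and 127 CPM, below all controls, and fell by 20.7% (log2 fold change -0.33, SE 0.04, edgeR adjusted p = 9.75e-07).

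INSIG1 was at 49.7, 45.0 and 45.3 CPM with SGN-2FF and fell by 19.1% (log2 fold change -0.31, SE 0.05, edgeR adjusted p = 0.0002). IDI1 was at 36.4, 33.6 and 37.0 CPM and fell by 16.7% (log2 fold change -0.26, SE 0.06, edgeR adjusted p = 0.00302). DHCR7 was at 123, 122 and 115 CPM and fell by 9.41% (log2 fold change -0.14, SE 0.04, edgeR adjusted p = 0.0198). In these 3 genes too, and in FDFT1, every SGN-2FF library lay below every DMSO library, as in 19.5% of all genes (above in 16.9%). The DHCR7 call was the least firm of the 4: it was lost without the first or the third DMSO library and without the second or the third SGN-2FF library (edgeR adjusted p from 0.0501 to 0.0712).

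The other genes did not pass the test with SGN-2FF. SQLE was at 37.2, 40.8 and 42.9 CPM (log2 fold change -0.09, 95% interval -0.22 to 0.04), FDFT1 at 326, 321 and 318 CPM (-0.06, -0.13 to 0.01) and LSS at 9.32, 8.38 and 10.6 CPM (-0.21, -0.43 to 0.01). SREBF2 was at 332, 317 and 304 CPM (-0.06, -0.14 to 0.02). The interval of SQLE ends far above its estimate with Fucotrim I, whereas that of LSS includes it.

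With P-SiaFNEtoc, the inhibitor of sialylation, only SREBF2 passed the test among the 8 genes. It was at 347, 372 and 363 CPM, above all controls, and rose by 8.26% (log2 fold change 0.11, SE 0.04, edgeR adjusted p = 0.0439). Over the 14259 genes tested, 9.02% were called higher and 7.33% lower, with a median of 0.00. The SREBF2 call was lost without any 1 of the DMSO libraries and without the second or the third P-SiaFNEtoc library (edgeR adjusted p from 0.0523 to 0.250).

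The remaining 7 genes did not pass the test with P-SiaFNEtoc. HMGCS1 was at 156, 168 and 162 CPM (log2 fold change 0.01, 95% interval -0.07 to 0.10), IDI1 at 41.2, 40.4 and 40.0 CPM (-0.08, -0.20 to 0.03) and FDFT1 at 345, 356 and 360.4 CPM (0.07, -0.01 to 0.15). SQLE was at 46.5, 46.7 and 46.0 CPM (0.11, -0.01 to 0.22) and LSS at 12.4, 12.8 and 11.4 CPM (0.16, -0.03 to 0.35). DHCR7 was at 130.02, 136 and 144 CPM (0.03, -0.06 to 0.12) and INSIG1 at 55.1, 57.0 and 55.1 CPM (-0.06, -0.16 to 0.05). All P-SiaFNEtoc libraries were above all DMSO libraries for SQLE, FDFT1, LSS and SREBF2 and below for IDI1 and INSIG1, as in 16.6% and 17.2% of all genes. The intervals hold any change of these genes within about 0.35 on the log2 scale, and for HMGCS1, DHCR7 and INSIG1 within 0.16.

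**Figure D2:**
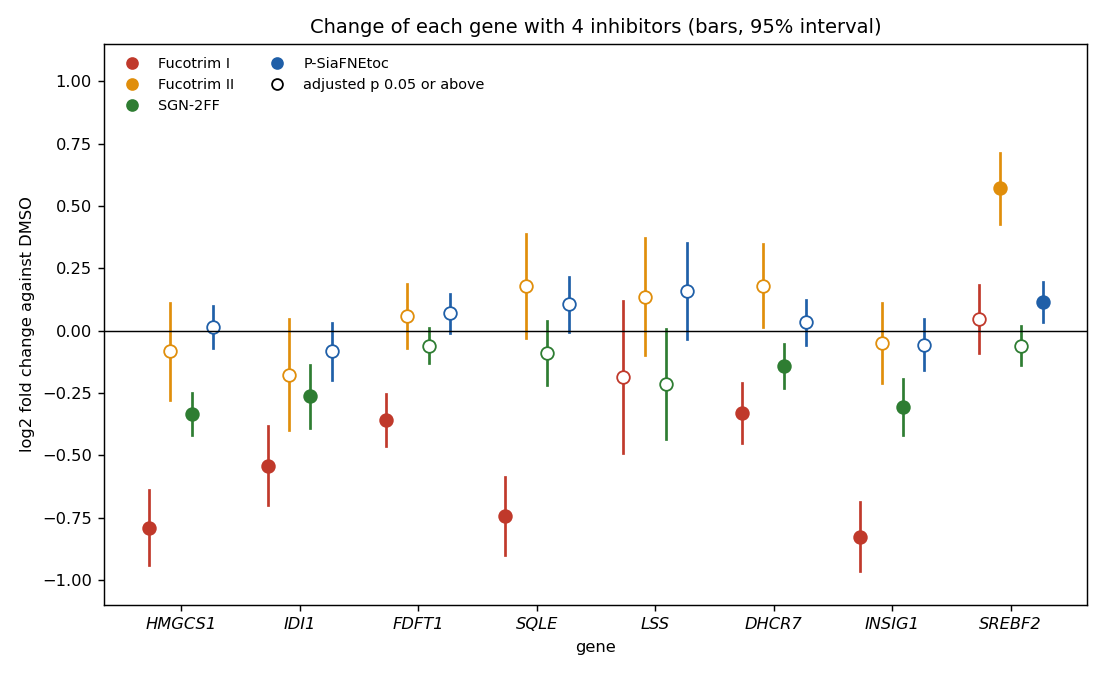
Log2 fold change of each gene against DMSO (vertical axis) with the 4 inhibitors (colours), with bars for the 95% interval and filled points for an adjusted p under 0.05. Fucotrim I points are filled and below 0 for 6 genes, SGN-2FF points for 4, and SREBF2 is filled above 0 with Fucotrim II (0.57) and P-SiaFNEtoc (0.11).

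The treated groups were then compared with each other, in one edgeR fit of all 14 libraries with adjustment over all genes and the 6 pairs of inhibitors together. Fucotrim I at 30 µM and Fucotrim II at 60 µM differed in 7 of the 8 genes, all lower with Fucotrim I, where 13.5% of the 14877 genes tested were lower and 12% higher. The log2 difference was -0.93 for SQLE (SE 0.09, edgeR adjusted p = 3.84e-08), -0.79 for INSIG1, -0.72 for HMGCS1, -0.53 for SREBF2, -0.52 for DHCR7, -0.42 for FDFT1 and -0.37 for IDI1. LSS did not pass (-0.33, 95% interval -0.65 to -0.01, edgeR adjusted p = 0.108). IDI1 no longer passed without the first Fucotrim II library (-0.21, edgeR adjusted p = 0.0988). As the doses differ, this compares 2 treatments and not the compounds dose for dose.

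Fucotrim I was also lower than SGN-2FF (100 µM) and than P-SiaFNEtoc (2 µM) in 6 of the 8 genes each, where 12.5% and 15.9% of all genes were lower (12.3% and 15.1% higher). The 6 genes were HMGCS1, SQLE, IDI1, FDFT1, DHCR7 and INSIG1 in both cases. Against SGN-2FF the log2 differences ran from -0.18 (DHCR7) to -0.65 (SQLE), and against P-SiaFNEtoc from -0.36 (DHCR7) to -0.85 (SQLE). Against SGN-2FF the calls of IDI1 and DHCR7 were lost on leaving out any of several single libraries (edgeR adjusted p up to 0.0917 for IDI1, without the third Fucotrim I library, and up to 0.189 for DHCR7, without the second). LSS and SREBF2 did not pass in either pair. Without the first Fucotrim I library, LSS was lower with Fucotrim I than with Fucotrim II (-0.57, edgeR adjusted p = 0.00295) and than with P-SiaFNEtoc (-0.59, edgeR adjusted p = 0.00126).

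Fucotrim II was higher than SGN-2FF in 5 genes, with 22.1% of all genes higher and 21.3% lower: SREBF2 (log2 difference 0.65), DHCR7 (0.34), SQLE (0.28), INSIG1 (0.27) and HMGCS1 (0.27). Without the first Fucotrim II library only SREBF2 and DHCR7 kept that call. Against P-SiaFNEtoc it was higher in SREBF2 alone (0.47, SE 0.07, edgeR adjusted p = 3.18e-05), with 23.3% of all genes higher and 23.3% lower, and without the first Fucotrim II library 4 genes differed, with SREBF2 and DHCR7 higher and HMGCS1 and IDI1 lower. SGN-2FF was lower than P-SiaFNEtoc in all genes but IDI1, 7 of 8, where 4.75% of all genes were lower and 4.51% higher. The largest of these differences were those of LSS (-0.38), HMGCS1 (-0.36) and INSIG1 (-0.26). With a block for replicate number in the fit, 2 of the 8 genes differed between SGN-2FF and P-SiaFNEtoc. HMGCS1 and INSIG1 kept their calls in every fit with a library left out, whereas the count fell to 2 without the second SGN-2FF or the second P-SiaFNEtoc library, to 3 without the third P-SiaFNEtoc library and to 4 without the third SGN-2FF library.

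Ordered by mean level, Fucotrim I was the lowest of the 5 conditions for HMGCS1, SQLE, IDI1, FDFT1, DHCR7 and INSIG1, and in each of these genes it differed from SGN-2FF, the next in order. For HMGCS1 the order was Fucotrim I, SGN-2FF, Fucotrim II, DMSO and P-SiaFNEtoc (92.5 ± 12.7, 127 ± 2.02, 152 ± 21.9, 161 ± 3.28 and 162 ± 5.99 CPM, SD), with the first 3 separated from each other and the last 3 not. For INSIG1 it was Fucotrim I, SGN-2FF, P-SiaFNEtoc, Fucotrim II and DMSO (32.6 ± 2.25, 46.7 ± 2.64, 55.8 ± 1.08, 56.3 ± 3.73 and 58.1 ± 0.543 CPM), again with the last 3 not separated. For SREBF2 Fucotrim II stood apart at 498 ± 31.0 CPM from P-SiaFNEtoc, Fucotrim I, DMSO and SGN-2FF (361 ± 12.5, 345 ± 41.6, 334 ± 8.51 and 318 ± 13.7 CPM), none of which differed from its neighbour in that order. No neighbours in the order of LSS differed.

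A further 13 genes of the same pathway were tested too. That list was compiled with earlier results of these data known, so it is not independent support. With Fucotrim I, 7 of the 13 fell and 2 rose, beside background shares of 22.1% and 21.6%, with a median log2 fold change of -0.21. The falls were those of MSMO1 (-0.61), ACAT2 (-0.58), SC5D (-0.45), LBR (-0.44), HSD17B7 (-0.40), CYP51A1 (-0.33) and MVK (-0.21). PMVK (0.29) and TM7SF2 (0.17) rose. MSMO1, an oxidase that removes methyl groups from sterols after lanosterol, was at 95.6, 92.3 and 92.1 CPM in DMSO and at 60.7, 63.8 and 58.0 CPM with Fucotrim I. The groups did not overlap, and MSMO1 fell by 34.7% (SE 0.06 on the log2 scale, edgeR adjusted p = 5.61e-08). Of the 100-base windows of CYP51A1 exons, 66.0% also occur in other annotated genes, so its value is uncertain, and the calls of MVK, TM7SF2 and HSD17B7 were lost on leaving out single libraries.

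Fucotrim II split the same 13 genes, with 7 higher and 2 lower (background 25.6% and 25.7%) and a median of 0.25. Lower were LBR (-0.58) and ACAT2 (-0.54), and both were also lower with Fucotrim I. Higher were MVD (0.67), TM7SF2 (0.49), HSD17B7 (0.45), PMVK (0.38), MVK (0.30), FDPS (0.29) and EBP (0.25). MVD, the decarboxylase that makes isopentenyl diphosphate, was at 62.3, 51.7 and 57.8 CPM in DMSO, at 57.7, 51.9 and 52.5 CPM with Fucotrim I and at 84.3 and 98.2 CPM with Fucotrim II. Both Fucotrim II libraries lay above all controls, while the Fucotrim I libraries overlapped them. With Fucotrim II MVD rose by 58.8% (SE 0.09 on the log2 scale, edgeR adjusted p = 0.000352). MSMO1 was at 103 and 91.0 CPM with Fucotrim II, on either side of the controls (log2 fold change 0.05, 95% interval -0.11 to 0.21). The rises of MVK and EBP were lost without the second and the third DMSO library, respectively. With a block for replicate number in the fit, MVK (0.31), FDPS (0.28), HSD17B7 (0.42) and EBP (0.25) no longer passed. Another annotated gene on the same strand shares 36.4% of the exon bases of EBP, so its value is uncertain.

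SGN-2FF lowered 4 of the 13 genes (background 9.08%), with a median of -0.08: ACAT2 (-0.26), SC5D (-0.16), TM7SF2 (-0.14) and MSMO1 (-0.14). ACAT2, which makes acetoacetyl-CoA at the start of the pathway, kept its call in every fit with a library left out, whereas the other 3 calls were lost without the first or the third DMSO library or the second SGN-2FF library. Genes on the opposite strand cover 22.2% of the exon bases of ACAT2 and 18.6% of those of FDPS, so antisense reads may be part of these counts too. P-SiaFNEtoc gave 2 higher, HSD17B7 (0.28) and PMVK (0.22), and 2 lower, SC5D (-0.18) and LBR (-0.16), with a median of 0.01 (background 9.02% and 7.33%). Of these 4 calls, those of HSD17B7 and LBR were lost without single libraries, among them the second P-SiaFNEtoc library (edgeR adjusted p = 0.0932 and 0.0700). In a fit of all 14 libraries together, none of the 4 passed.

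**Figure D3:**
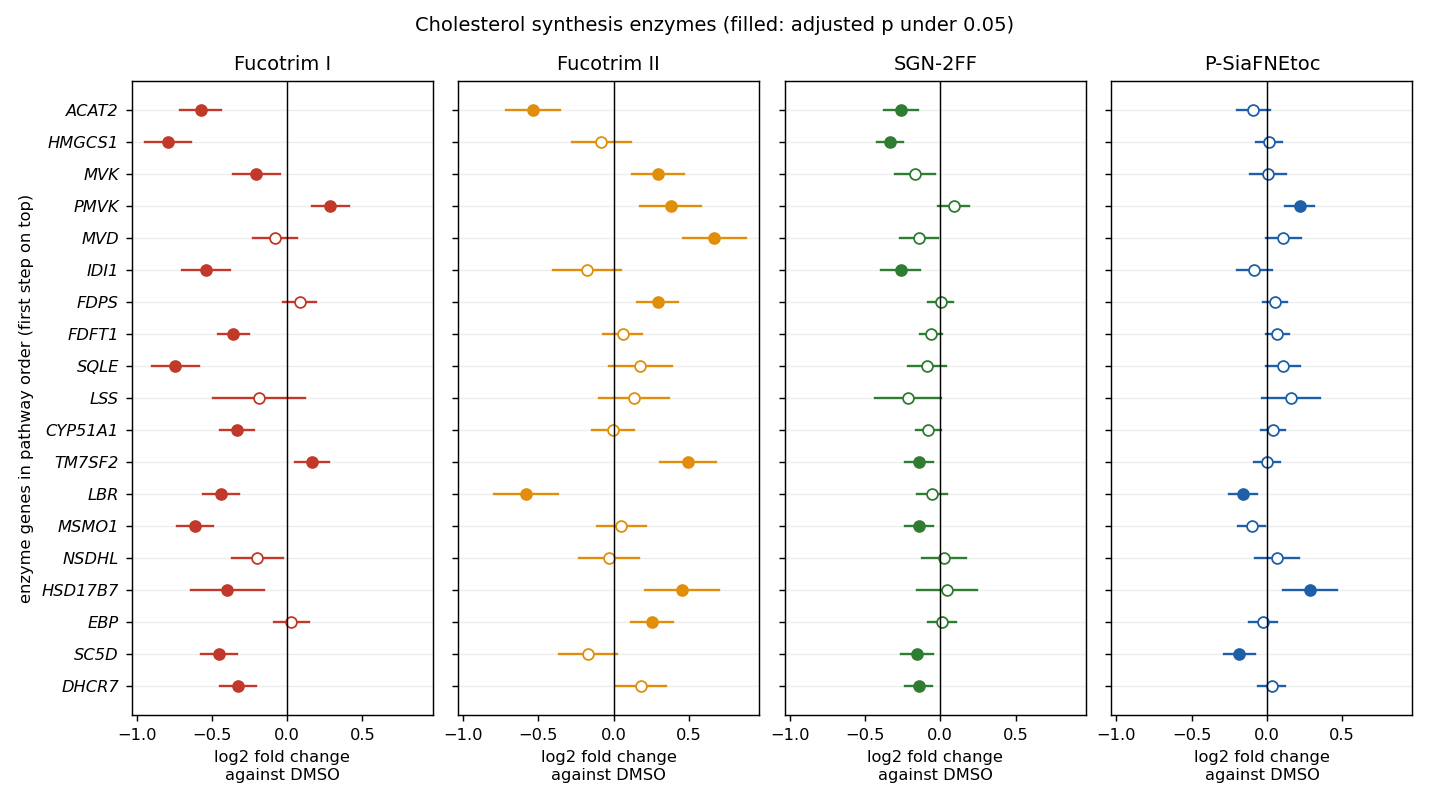
Log2 fold change against DMSO (horizontal axis, bars for the 95% interval) of 19 enzyme genes in the order of the pathway, with 1 panel per inhibitor and filled points for an adjusted p under 0.05. With Fucotrim I filled points left of 0 run from the top of the list (ACAT2) to its end (DHCR7), with PMVK (0.29) and TM7SF2 (0.17) filled on the right, and with Fucotrim II filled points run from -0.58 (LBR) to 0.67 (MVD).

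Among listed genes that control SREBP, only SCAP with Fucotrim II and SREBF1 with P-SiaFNEtoc were called higher, and the other calls were lower. Of 9 genes of SREBP processing and sterol sensing, Fucotrim I lowered 4 (22.1% of all genes). Fucotrim II lowered 2 and raised 1 (25.7% and 25.6%). SGN-2FF lowered 2 (9.08%), and P-SiaFNEtoc lowered 2 and raised 1 (7.33% and 9.02%). The Fucotrim II counts, and the higher count with P-SiaFNEtoc, are near or below the shares over all genes. Without the third Fucotrim I library 3 of the 4 genes lowered by Fucotrim I lost their call (INSIG2, MBTPS2 and SPRING1, edgeR adjusted p = 0.0698, 0.0610 and 0.0733), which left MBTPS1, the site-1 protease. Of the 3 P-SiaFNEtoc calls, those of MBTPS1 and RNF145 were each lost without several single libraries, while that of SREBF1 was not. INSIG2, the second INSIG gene, had a log2 fold change of -0.39 with Fucotrim I (edgeR adjusted p = 0.0208), -0.32 with Fucotrim II, -0.09 with SGN-2FF and -0.10 with P-SiaFNEtoc, and the first was called lower. That call was also lost without the first or second DMSO library and by the DESeq2 test (-0.38, DESeq2 adjusted p = 0.0822). Without the second Fucotrim II library, the Fucotrim II value of INSIG2 was -0.46. MBTPS2, the site-2 protease, fell with Fucotrim I (-0.31) and Fucotrim II (-0.41) and had values of -0.14 and -0.04 with SGN-2FF and P-SiaFNEtoc, although other genes on the same strand share 13.4% of its exon bases. SCAP was at 0.07, 0.22, 0.03 and 0.08 with Fucotrim I, Fucotrim II, SGN-2FF and P-SiaFNEtoc, and only the second was called (edgeR adjusted p = 0.0457, lost without any 1 of the DMSO libraries or the second Fucotrim II library). SREBF1, the gene of the SREBP-1 proteins that favour fatty acid synthesis, rose with P-SiaFNEtoc (0.38, SE 0.05, edgeR adjusted p = 4.48e-07) and had values of -0.09, 0.16 and 0.16 with the other three.

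Uptake and transport inside the cell are represented by 9 genes. STARD4, which carries cholesterol between membranes, had a larger fall with Fucotrim I than the estimate for any of the 8 genes. It was at 37.6, 44.02 and 40.04 CPM in DMSO and at 19.4, 22.2 and 20.5 CPM with Fucotrim I and fell by 48.8% (log2 fold change -0.96, SE 0.08, edgeR adjusted p = 1.33e-08). It also fell with Fucotrim II (-0.49) and SGN-2FF (-0.46) and stood at -0.03 with P-SiaFNEtoc.

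NPC1, which exports cholesterol from lysosomes, fell with 3 of the 4 inhibitors. It was at 25.4, 27.2 and 26.0 CPM in DMSO and at 20.9, 19.3 and 19.4 CPM with Fucotrim I, and it fell by 24.0% (log2 fold change -0.40, SE 0.08, edgeR adjusted p = 0.000439). With SGN-2FF it was at 20.1, 20.6 and 23.6 CPM (-0.28, edgeR adjusted p = 0.00788) and with P-SiaFNEtoc at 22.8, 22.6 and 19.7 CPM (-0.27, edgeR adjusted p = 0.0108). All libraries of these 3 groups lay below all controls, whereas Fucotrim II, at 26.2 and 26.8 CPM, overlapped them (0.01, 95% interval -0.17 to 0.19). The SGN-2FF call was lost without the first or the second SGN-2FF library (edgeR adjusted p = 0.0537 and 0.0668) and the P-SiaFNEtoc call without the third P-SiaFNEtoc library (edgeR adjusted p = 0.0669). In all, Fucotrim I lowered 2 of the 9 genes and raised 1 (22.1% and 21.6% of all genes), Fucotrim II lowered 2 and raised 1 (25.7% and 25.6%), SGN-2FF lowered 3 (9.08%), and P-SiaFNEtoc lowered 1 and raised 1 (7.33% and 9.02%). With both Fucotrims these shares are near or below those over all genes. The gene raised by both, NPC2, and MYLIP, lowered by Fucotrim II, each lost their calls without any of several single libraries, as did LIPA, lowered by SGN-2FF.

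**Figure D4:**
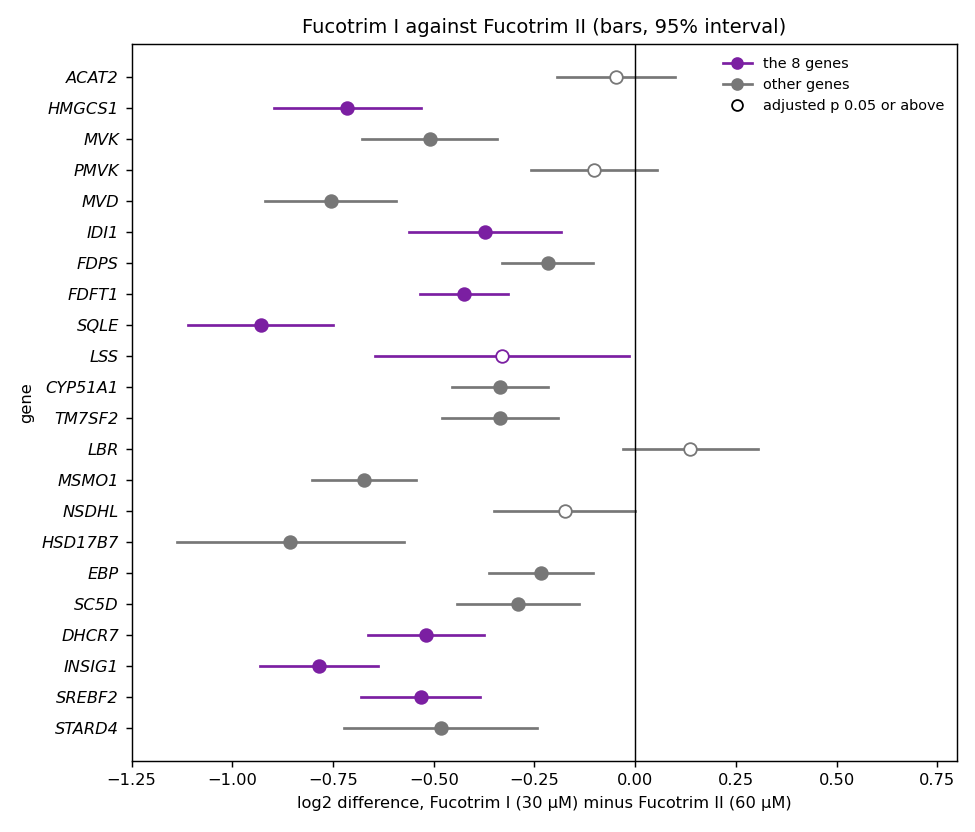
Log2 difference between Fucotrim I (30 µM) and Fucotrim II (60 µM) for the enzyme genes in pathway order and for INSIG1, SREBF2 and STARD4, with bars for the 95% interval and filled points for an adjusted p under 0.05 over all genes and 6 pairs. Of the 8 genes (purple) 7 are filled and left of 0, and LSS and, among the others, ACAT2, PMVK, LBR and NSDHL are open.

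Genes around the pathway were few per list, so their counts are not read as results about the lists. With Fucotrim II and SGN-2FF the counts of fatty acid genes were near the shares over all genes. Of 7 genes of efflux and storage, of which 5 or 6 could be tested, Fucotrim I and Fucotrim II raised 2 each, NR1H2 and APOE, where 21.6% and 25.6% of all genes rose. APOE, an apolipoprotein gene, had log2 fold changes of 0.49, 1.22, 0.10 and 0.00 with Fucotrim I, Fucotrim II, SGN-2FF and P-SiaFNEtoc. NR1H2, the LXR beta receptor gene, had 0.29, 0.39, -0.02 and 0.14, and the first 2 values of each gene were called. A gene on the opposite strand covers 22.1% of the exon bases of NR1H2, so antisense reads may be part of its counts. Of 9 genes of fatty acid synthesis, 3 rose and 3 fell with Fucotrim I (21.6% and 22.1% of all genes), 3 rose and 2 fell with Fucotrim II (25.6% and 25.7%), 1 rose and 1 fell with SGN-2FF (11.5% and 9.08%), and 2 rose with P-SiaFNEtoc (9.02%). FASN, fatty acid synthase, rose with Fucotrim I (0.69) and Fucotrim II (0.65), with values of 0.12 and 0.04 for the other 2. SCD, stearoyl-CoA desaturase, fell with Fucotrim I (-0.82) and rose with P-SiaFNEtoc (0.34), with values of -0.24 (edgeR adjusted p = 0.0597) and 0.01 for Fucotrim II and SGN-2FF. The Fucotrim II value of SCD was -0.42 without the first Fucotrim II library and was then called lower (edgeR adjusted p = 5.75e-06), as it also was by the DESeq2 test, by limma-voom with quality weights, with no filter, in the fit of all 14 libraries and with the block by library-name numbers (adjusted p from 0.0185 to 0.0495).

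The branch enzymes that use the same isoprenoid units for dolichol, ubiquinone and prenyl groups fell or did not pass. Of 11 such genes Fucotrim I lowered 4 (22.1% of all genes), Fucotrim II 6 (25.7%), and SGN-2FF and P-SiaFNEtoc 1 each (9.08% and 7.33%). The gene lowered by the last 2 was FNTA, a farnesyltransferase subunit, at about the share over all genes, and both calls were lost without single libraries. Of the others, PDSS1 with Fucotrim I and FNTA and PGGT1B with Fucotrim II also lost their calls without single libraries. NUS1, a subunit of the enzyme that makes dolichol precursors, fell with Fucotrim I (-0.58) and Fucotrim II (-0.52) and had values of -0.13 and -0.03 with SGN-2FF and P-SiaFNEtoc, although part of its sequence is shared with other loci. COQ2, of ubiquinone synthesis, fell with both Fucotrims (-0.40 and -0.50) and had values of -0.15 and -0.14 with the other inhibitors.

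Finally, the genes whose pattern over the 5 conditions lay closest to each of the 8 were looked up. Likeness was the root mean square difference between the centred log2 mean levels of the 5 groups, over 9828 genes of at least 10 CPM on average. GRB10, an adaptor of growth factor receptors, was closest to both HMGCS1 (0.0362) and INSIG1 (0.0625), with SEL1L, a subunit of the ligase complex that removes misfolded proteins from the endoplasmic reticulum, second for both (0.0822 and 0.0828). Next in likeness were SARS1, a seryl-tRNA synthetase, for HMGCS1 (0.0857) and CREB3L2, a membrane-bound transcription factor, for INSIG1 (0.0873). SDF2L1 was closest to SQLE (0.0561), EIF1 to IDI1 (0.0463), MIA2 to FDFT1 (0.0171), BNIP3L to LSS (0.0204) and TMEM263 to DHCR7 (0.0340).

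For SREBF2 the closest was ERBB2, a receptor tyrosine kinase gene (0.0339), followed by CLSTN3 (0.0356) and RNF187 (0.0359). The next 2 genes were APTR and RNASE4 for SQLE, WARS1 and NUCB2 for IDI1, SEC11C and CTDSP2 for FDFT1, STOM and SLC66A2 for LSS, and SEC24D and GFPT1 for DHCR7. None of these genes was on the pathway lists, and the likeness rests on 5 group means that share the same libraries, so it is given as a description.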

How the data were processed

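RNA from CWR22Rv1 cells was sequenced as single reads from stranded mRNA libraries. In Galaxy, the authors used Cutadapt for trimming, HISAT2 for alignment to hg38 and featureCounts for gene-level counting, and deposited 4 tables of raw read counts, each holding 1 inhibitor and the same DMSO libraries. The submitters' processing notes also name FastQC and limma. The strand setting and annotation of the counting are not given in the sources used here. In the SGN-2FF table, which has gene numbers only, 549 numbers had no symbol and held 0.0538% of its counts.

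Genes were filtered with filterByExpr (at least 10 counts, 15 in total) and scaled by TMM, and each inhibitor was compared with DMSO by edgeR's robust quasi-likelihood test (edgeR 4.0.16, R 4.3.3) with Benjamini-Hochberg adjustment over all genes, at an adjusted p under 0.05. The 6 inhibitor pairs came from 1 fit of all 14 libraries. Alternatives were DESeq2 1.42.0 (test and size factors), limma 3.58.1 (voom, with and without quality weights), other filters, a threshold of 0.01, a replicate block and leaving out each library. The procedure was tested on simulated data. The labels call the samples biological replicates and say no more, so p-values measure the spread between these libraries. Any pair of replicates differed by more than sampling noise (chi-square per degree of freedom 1.59 to 4.37 in the DMSO, SGN-2FF and P-SiaFNEtoc groups, 5.66 to 17.9 with Fucotrim I and 24.2 with Fucotrim II), so replicates stood furthest apart with the Fucotrims.

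Members and gene lists were chosen with earlier results of these data known. Named genes were all 8 members, the 2 genes per list with the largest change among those called, SCAP, SREBF1 and INSIG2, and the 3 genes nearest in pattern to each member. The other synthesis genes called were all listed, after their values were seen. Some genes are not reported here, and the lists, sums and counts leave them out.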

Additional observations from a re-analysis of the deposited data

How the results depend on the processing

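The 6 genes lowered by Fucotrim I and the 4 lowered by SGN-2FF gave counts within 1.5 times under each of the alternatives run, and so did the 7 other synthesis genes lowered by Fucotrim I. With an adjusted p under 0.01, other synthesis genes numbered 1 higher with Fucotrim I, 1 lower with SGN-2FF, and 1 higher and 0 lower with P-SiaFNEtoc, where 0 of the 8 genes was higher. With all 14 libraries in 1 fit, 2 of the 8 genes were higher with Fucotrim II and 0 with P-SiaFNEtoc, and other synthesis genes numbered 1 lower with SGN-2FF and 0 higher and 0 lower with P-SiaFNEtoc. The DESeq2 test gave 2 other synthesis genes lower with SGN-2FF and 1 higher with P-SiaFNEtoc. The causes were not tested.

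Leaving out 1 library at a time, the 8 genes gave 1 to 2 higher and 0 to 2 lower with Fucotrim II and 0 to 1 higher with P-SiaFNEtoc. Other synthesis genes gave 1 to 3 higher with Fucotrim I, 1 to 6 lower with SGN-2FF, and 1 to 2 higher and 1 to 2 lower with P-SiaFNEtoc. Of the 8 genes, 2 to 7 differed between Fucotrim II and SGN-2FF, 1 to 4 between Fucotrim II and P-SiaFNEtoc and 2 to 8 between SGN-2FF and P-SiaFNEtoc.

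Values whose sign turned on leaving out a library were all uncalled with every library included. The log2 fold change ran from -0.050 to 0.11 for SREBF2 with Fucotrim I, and with Fucotrim II from -0.24 to 0.049 for HMGCS1, -0.12 to 0.0090 for INSIG1, -0.043 to 0.13 for MSMO1 and -0.017 to 0.034 for NPC1. With SGN-2FF it ran from -0.31 to 0.052 for INSIG2, -0.077 to 0.014 for NR1H2, -0.021 to 0.070 for SCAP and -0.035 to 0.040 for SCD. With P-SiaFNEtoc it ran from -0.015 to 0.039 for HMGCS1, -0.0047 to 0.067 for DHCR7, -0.15 to 0.19 for APOE, -0.021 to 0.075 for FASN, -0.10 to 0.011 for MBTPS2, -0.068 to 0.019 for NUS1 and -0.086 to 0.035 for STARD4. Between Fucotrim II and P-SiaFNEtoc it ran from -0.24 to 0.050 for HMGCS1, -0.24 to 0.061 for IDI1, -0.020 to 0.012 for FDFT1, -0.054 to 0.079 for INSIG1, -0.058 to 0.019 for LSS and -0.063 to 0.21 for SQLE. IDI1 ran from -0.056 to 0.25 between Fucotrim II and SGN-2FF, and LSS from -0.21 to 0.19 between Fucotrim I and SGN-2FF. Near 0, the sign also turned for SCD with SGN-2FF in the fit of all libraries (-0.0012), for MBTPS2 (0.00017) and STARD4 (0.0055) with P-SiaFNEtoc under limma-voom with quality weights, and for APOE with P-SiaFNEtoc under the DESeq2 test (-0.0022), limma-voom (-0.014) and the fit of all libraries (-0.00031).

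Whether replicate numbers pair the libraries was left undecided. Deviations of same-numbered DMSO and treated libraries correlated by 0.02 to 0.13 with Fucotrim I. They correlated by -0.19 to -0.15 with Fucotrim II (0.05 to 0.19 by the numbers in the library names). The values were -0.10 to 0.02 with SGN-2FF and -0.04 to 0.02 with P-SiaFNEtoc. DMSO and Fucotrim I libraries of unlike number correlated by -0.15 to 0.05. With 2 or 3 libraries per group the deviations constrain each other, so this check cannot exclude pairing. With the replicate block, 0 of the 8 genes was higher with P-SiaFNEtoc, 3 other synthesis genes were higher with Fucotrim II, 2 of the 8 genes differed between SGN-2FF and P-SiaFNEtoc, and the sign turned for APOE with P-SiaFNEtoc (-0.0092) and INSIG1 between Fucotrim II and P-SiaFNEtoc (-0.0062). With the block by the numbers in the library names, which differ from the titles for Fucotrim II, 3 of the 8 genes were higher with Fucotrim II, and the sign turned for NPC1 with Fucotrim II (-0.011). Depth limits LSS most among the 8 genes, and Fucotrim II rests on 2 libraries.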
